A study of Mus musculus with 6 samples.

Results

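The 10 genes described here are 9 immediate early genes (Fos, Fosb, Jun, Junb, Jund, Egr1, Atf3, Ier2 and Ier3) and the proto-oncogene Myc. They were chosen by name, and a probe belonged to a gene when the array file or its accession gave that symbol. All 10 had exactly 1 probe each, among 20868 probes and 9334 named genes on the array. All 10 probes entered the tests, and 9 of them were well above background in both colour channels of all 6 arrays, Fos being the exception.

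The study asked which genes depend on CAR, the nuclear receptor encoded by Nr1i3, and are induced as liver tumours develop. 4 RNA groups were hybridised, all from mice of the C3H/HeNCrlBR background at 39 weeks of age. They were tumour of wild-type (WT) mice given diethylnitrosamine (DEN) and phenobarbital (PB), liver of CAR-knockout (CAR-KO) mice given DEN and PB, liver of CAR-KO mice given DEN alone, and liver of WT mice given DEN and PB. DEN is a carcinogen that starts liver tumours and was common to all groups, and PB, which the mice drank in their water, promotes their growth. The 6 arrays of the 2-colour type were run as 3 dye-swapped pairs, and each pair held CAR-KO liver after DEN and PB in 1 channel. The number of mice, any pooling and the deleted allele were not given in the labels, nor whether the arrays of a pair shared their RNA, so the spread between 2 arrays may be technical only. An SE marked with 2 arrays names the arrays that held the comparison. Its size comes from the fit of all 6 arrays, and it does not measure the spread between those 2.

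The arrays themselves differed. Median local background was between 53 and 62 on 5 arrays, while array 2 of the tumour pair reached 288 in Cy3 and 299 in Cy5. The probe for Nr1i3, which the files do not place relative to the deletion and which therefore checks nothing about genotype, had a log2 ratio of -0.79 ± 0.16 (SE, 2 arrays) in CAR-KO over WT liver, which did not pass (limma adjusted p = 0.412), and of 1.81 ± 0.16 in WT tumour over CAR-KO liver, which did (adjusted p = 0.00194). All 7 measured hepatocyte markers were well above background in both channels of every array. In bulk tissue, a smaller number of cells of a type and less RNA per cell cannot be told apart.

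Immediate early genes are transcribed within minutes of a growth factor, stress or injury signal and need no new protein synthesis for it. Fos and Jun family proteins pair through leucine zippers to form AP-1, a transcription factor that binds the promoters of many growth and stress genes. Jun proteins can pair with each other as well as with Fos proteins, while Fos proteins need a Jun partner. In mouse liver, Jun and Myc are induced early in regeneration after partial hepatectomy, and Jun is required for the development of chemically induced liver tumours.

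Of the 10 genes, Jun and Myc were higher in WT tumour than in the CAR-KO liver that had also received DEN and PB, and the other 8 did not pass the test there. The count of 2 higher and 0 lower stands against 2.53% of all probes higher and 0.839% lower in that comparison (limma, Benjamini-Hochberg adjusted p under 0.05, which called 3.36% of probes in all). With median centring of the arrays in place of loess it was 3 higher and 1 lower, but 4156 of all probes were then called, against 698. With 1 array of the PB pair left out, whichever it was, it was 0, and 285 of all probes were called. At an unadjusted p under 0.05, 5 of the 10 differed, as did 4858 of the 20744 probes tested. Tumour and liver here differed in both CAR genotype and tissue state, and these cannot be told apart. The members' median log2 ratio was 0.0995, against -0.0057 over all probes. The 2 arrays of the tumour pair gave the same sign for 5 of the 10 genes and for 59.1% of all probes.

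**Figure D1:**
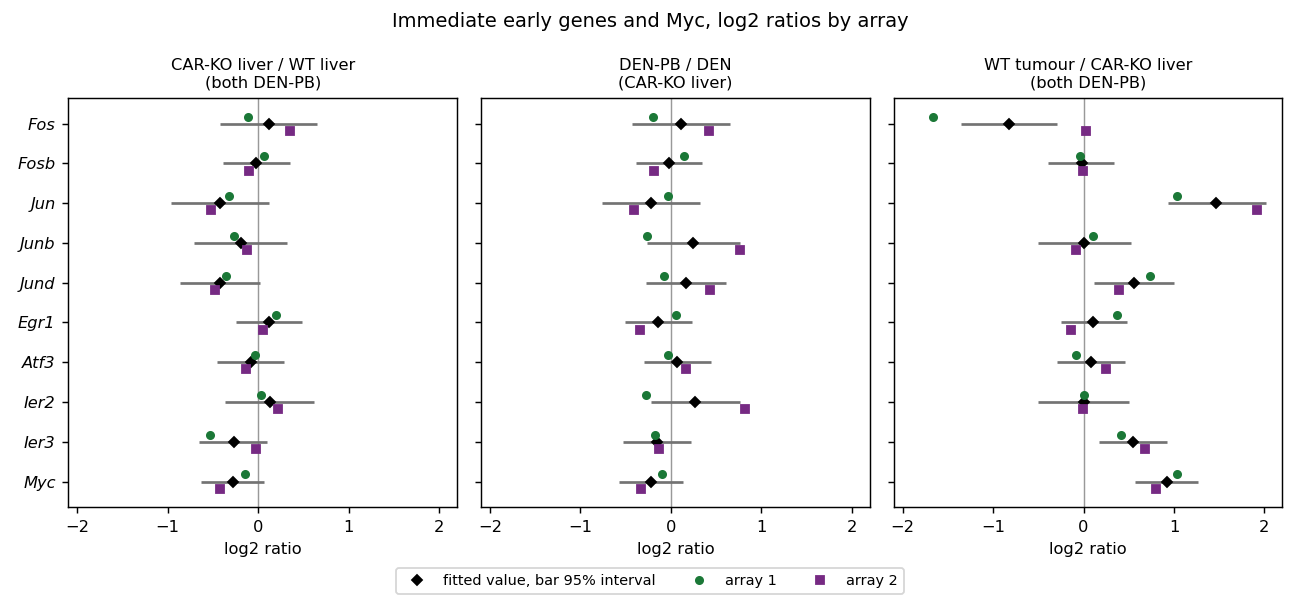
Log2 ratio (x axis) of each of the 10 genes (rows) in the 3 direct comparisons, with the 2 dye-swapped arrays as a circle and a square and the fitted value as a diamond with its 95% interval. Jun and Myc lie to the right of 0 on both arrays of the tumour pair, at 1.03 and 1.92 for Jun and 1.03 and 0.80 for Myc, while the 2 arrays of Fos lie apart at -1.67 and 0.03.

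Jun encodes the c-Jun subunit of AP-1. Its normalized signal, which includes the offset of 50 added during background correction, was 247 in tumour against 121 in CAR-KO liver on array 1 and 411 against 109 on array 2. Tumour was the brighter channel under both dye orientations. The brightest liver signal of Jun on the 6 arrays was 129, in WT liver. The log2 ratio was 1.47 ± 0.23 (SE, 2 arrays), 2.78-fold, with a 95% interval of 0.93 to 2.02 and an adjusted p of 0.0182 from limma. The offset compresses ratios of dim probes. On the authors' processed signals, which carry no offset, Jun read 949 against 314 and 2200 against 332, a log2 ratio of 2.16 with an adjusted p of 0.228.

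The size of the Jun ratio depended on which array of the tumour pair was kept. Without array 2, the array with the high background, the log2 ratio was 0.89, and without array 1 it was 2.06. Each of these fits held 1 tumour array. Over 14 other settings the ratio was positive in all and passed in 9 (limma), those fits among them. It missed the threshold with 1 array of the PB pair left out (adjusted p = 0.0573 for each), with array weights (adjusted p = 0.0517), in a fit of the tumour pair by itself (adjusted p = 0.145) and on the processed signals.

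Jun was the gene with the largest ratio of the set, and its promoter is shown beside that of Fos, its AP-1 partner, whose ratio had the opposite sign. Each sequence runs 5′ to 3′ over the 250 bases before the annotated start (RefSeq, GRCm38.p6), at chr4:95052223-95052472 on the minus strand for Jun and at chr12:85473640-85473889 on the plus strand for Fos. Capitals mark matches to a motif searched.
Jun: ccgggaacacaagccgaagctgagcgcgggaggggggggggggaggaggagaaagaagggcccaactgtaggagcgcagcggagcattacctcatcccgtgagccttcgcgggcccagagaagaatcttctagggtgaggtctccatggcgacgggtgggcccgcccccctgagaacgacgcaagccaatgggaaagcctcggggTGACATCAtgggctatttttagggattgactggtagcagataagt
Fos: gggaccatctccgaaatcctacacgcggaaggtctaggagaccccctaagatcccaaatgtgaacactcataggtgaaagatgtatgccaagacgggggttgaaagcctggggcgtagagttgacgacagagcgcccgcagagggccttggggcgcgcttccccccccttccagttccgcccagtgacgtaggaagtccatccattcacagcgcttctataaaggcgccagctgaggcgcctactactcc
The motifs were the AP-1 site TGANTCA, the cyclic AMP response element and its variants TGACNTCA, the E-box CACGTG bound by Myc and Max, and the CArG box bound by serum response factor, each on both strands. The match in the Jun promoter, TGACATCA, lies at -45 to -38 on the gene's strand. Within these 250 bases it was the sole match to any of the 4 motifs among the 7 members whose promoters were searched. Bases further upstream were not searched, so nothing is said of motifs there. Egr1, Ier2 and Myc were not searched, so nothing is said here of motifs in their promoters. Of 32851 promoter windows of that length, 7.49% held TGACNTCA, 6.75% the AP-1 site, 6.02% the E-box and 1.47% a CArG box. No occupancy of these sites was measured here.

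The other Jun family members had smaller ratios. Jund, the member that is usually expressed in resting cells, had signals of 3010 in tumour against 1810 in CAR-KO liver on array 1 and 5190 against 3960 on array 2. Both arrays gave the higher signal to tumour. Its log2 ratio of 0.56 ± 0.19 (SE, 2 arrays) missed the threshold (limma adjusted p = 0.143) and passed with median centring of the arrays (1.21, adjusted p = 0.011). With array 2 left out it was 0.84, and with array 1 left out 0.29. Each of these fits held 1 tumour array.

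Junb, which can act against Jun in cell growth, had signals of 498 in tumour against 464 in CAR-KO liver and, on array 2, 1290 against 1360. The 2 arrays gave opposite signs, and the fitted log2 ratio was 0.01 ± 0.22 (SE, 2 arrays), with a 95% interval of -0.50 to 0.53. That interval leaves room for a change of either sign.

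Fos, the founding member of its family, was measured least well. Its probe was well above background in Cy3 on 6 arrays but in Cy5 on 3. It also had the largest dye effect among the members, with a log2 ratio of Cy5 over Cy3 of -0.46 ± 0.13 (SE, 6 arrays), where the median size over all probes was 0.109. Signals were 70.9 in tumour against 226 in CAR-KO liver on array 1, and 64 against 62.8 on array 2, where the CAR-KO channel was not well above background. The difference thus appeared on 1 array, under 1 dye orientation.

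The fitted Fos ratio in tumour over CAR-KO liver was -0.82 ± 0.23 (SE, 2 arrays), which did not pass (limma adjusted p = 0.107). Its 95% interval of -1.36 to -0.29 held neither array's own value (-1.67 and 0.03). Without array 2 of the tumour pair the Fos ratio was -1.40, and without array 1 it was -0.24. Each of these fits held 1 tumour array. With median centring the ratio passed at -1.10 (limma adjusted p = 0.0121). On array 1 the authors' processed signals were 95 in tumour and 679 in CAR-KO liver, and on array 2 they were 79.6 and 74.9. Fosb, a close relative of Fos, had signals of 316 in tumour against 326 in CAR-KO liver and of 149 against 150. The channels lay close together on each array, with a fitted log2 ratio of -0.02 ± 0.16 (SE, 2 arrays) and a 95% interval of -0.39 to 0.34.

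**Figure D2:**
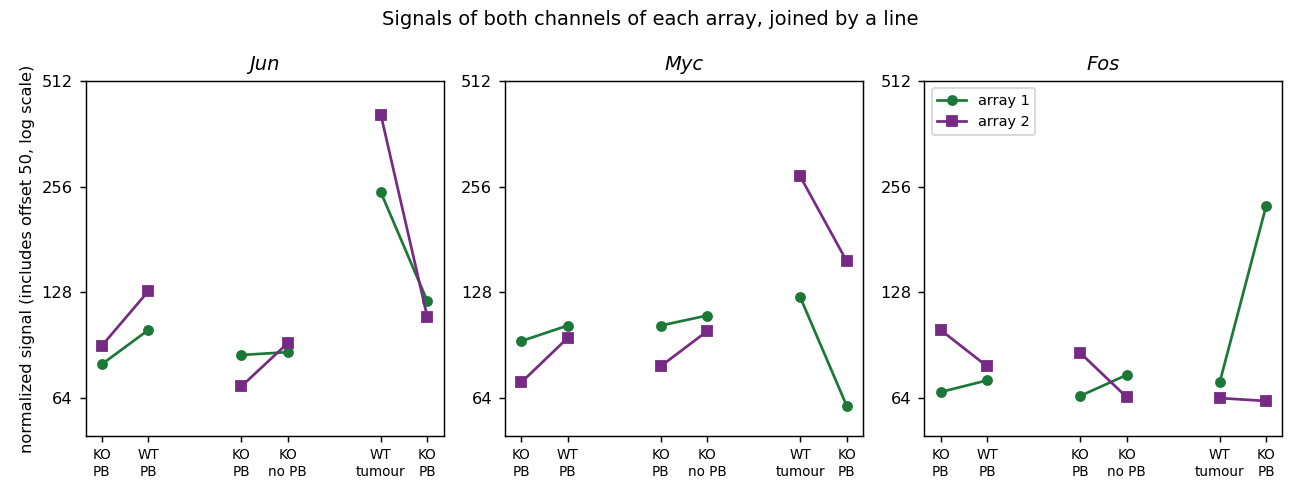
Normalized signal (y axis, log scale, including the offset of 50) of Jun, Myc and Fos in both channels of each array, joined by a line per array. Jun and Myc lines slope down from tumour to CAR-KO liver on both tumour arrays, and the Fos line is steep on array 1 (70.9 and 226) and flat on array 2 (64 and 62.8).

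Myc encodes a transcription factor that drives cell growth, ribosome production and division, usually as a dimer with Max. Its signals were 124 in tumour against 60.8 in CAR-KO liver on array 1 and 274 against 157 on array 2. Tumour was brighter on both arrays, though the 2 arrays differed in level by more than the tumour and liver channels did. The log2 ratio was 0.92 ± 0.15 (SE, 2 arrays), 1.89-fold, with a 95% interval of 0.57 to 1.27 and an adjusted p of 0.0208 from limma.

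The Myc ratio moved little when a tumour array was left out. Leaving out array 1 or array 2 of the tumour pair gave 0.93 and 0.90. Each of these fits held 1 tumour array. The ratio was positive in all 14 other settings, with a range of 0.54 to 1.68, and passed in 6 (limma), those fits among them. The call was lost without either array of the genotype pair (adjusted p = 0.0594 for each) or of the PB pair (adjusted p = 0.076 for each), with array weights (adjusted p = 0.11), in a fit of the tumour pair by itself (adjusted p = 0.251), without background subtraction (0.54, adjusted p = 0.0684) and on the authors' processed signals (1.68, adjusted p = 0.157).

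**Figure D3:**
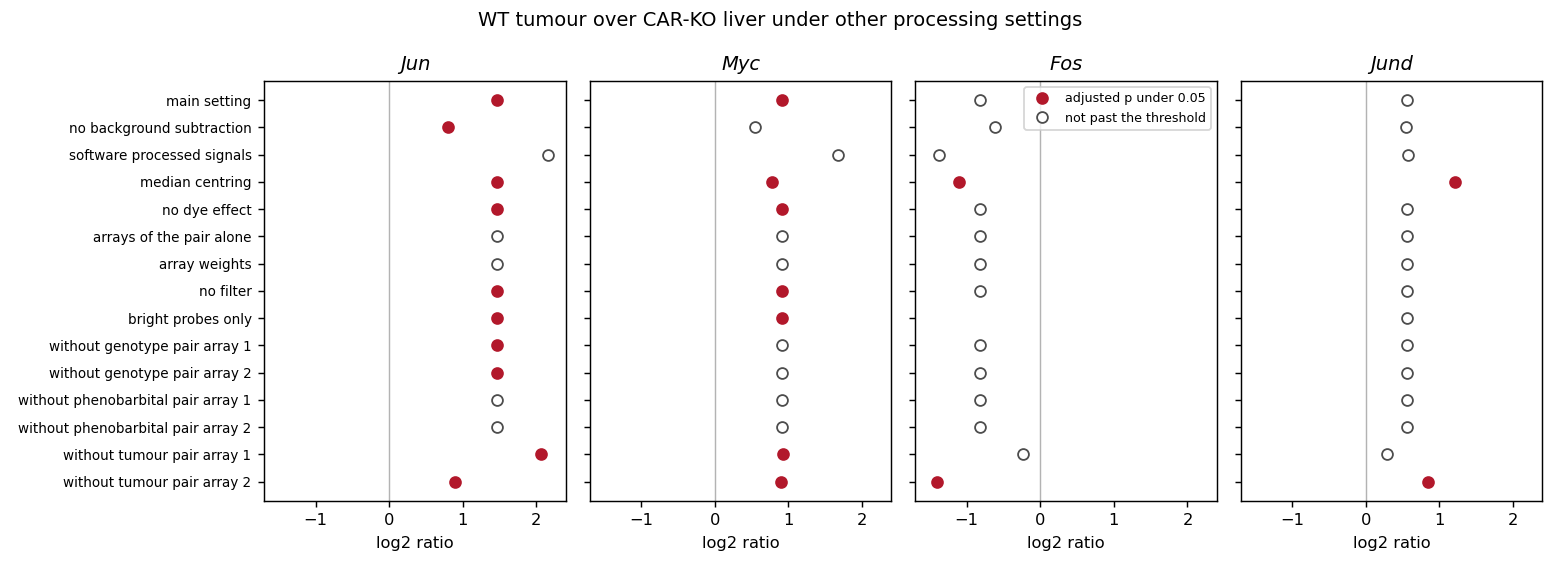
Log2 ratio of WT tumour over CAR-KO liver (x axis) for Jun, Myc, Fos and Jund under the main setting and the other settings (rows), with filled points where the adjusted p was under 0.05. Jun ran from 0.80 to 2.16 and Myc from 0.54 to 1.68, all above 0, and Fos passed with median centring. Its filled point without array 2 of the tumour pair comes from a fit with 1 tumour array. Fos has no point under the filter for bright probes because its probe was left out there.

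Ier3, an early response gene whose product acts in cell survival, had signals of 110 in tumour against 83 in CAR-KO liver on array 1 and 139 against 86.9 on array 2. Tumour was brighter on both arrays. Its log2 ratio of 0.55 ± 0.16 (SE, 2 arrays) did not pass over all probes (limma adjusted p = 0.119), nor in any of 14 other settings. Ier2, an early response gene that encodes a nuclear protein, had signals of 304 against 303 and of 670 against 672, and a log2 ratio of 0.00 ± 0.21.

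Egr1, a zinc finger factor that answers growth factor signals, had log2 ratios of 0.37 and -0.14 on the 2 tumour arrays. Atf3, a stress-induced partner of Jun proteins, had -0.08 and 0.25. Neither gene kept 1 sign, and the fitted values were 0.11 ± 0.16 and 0.08 ± 0.16 (SE, 2 arrays). The 95% intervals ran from -0.25 to 0.48 for Egr1 and from -0.29 to 0.46 for Atf3.

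CAR-KO liver was set over WT liver, each given DEN with PB, to find genes that depend on CAR. None of the 10 genes passed, and 0 did so at an unadjusted p under 0.05, as 471 of 20743 probes did. Over all probes limma called 0.101% after adjustment, 0.00964% higher and 0.0916% lower in CAR-KO liver. The members' median log2 ratio was -0.137, against 0.0154 over all probes. With 2 arrays and an SE of 0.15 to 0.23 per gene, intervals stayed wide.

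Jun had signals of 79.9 in CAR-KO against 100 in WT liver on array 1 and of 90.2 against 129 on array 2. CAR-KO liver was the dimmer channel on both. The fitted log2 ratio was -0.42 ± 0.23 (SE, 2 arrays; 95% interval -0.96 to 0.12). Jund gave 1390 in CAR-KO against 1800 in WT liver and 1470 against 2040, also dimmer in CAR-KO on both arrays, with -0.42 ± 0.19 and the smallest unadjusted p of the set (0.0585).

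Myc followed the same order in this pair, with 93 in CAR-KO against 103 in WT liver and 70.9 against 95. Its fitted log2 ratio was -0.28 ± 0.15 (SE, 2 arrays). CAR-KO liver was again dimmer on both arrays.

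Fitted ratios of the other 7 genes in CAR-KO over WT liver ran from -0.27 for Ier3 to 0.13 for Ier2. Ier3 had signals of 76.9 in CAR-KO against 111 in WT liver on array 1 and of 91 against 92.1 on array 2, so that its difference came from array 1. Junb had 422 in CAR-KO against 507 in WT liver and 506 against 549, lower in CAR-KO on both arrays, with a log2 ratio of -0.19 ± 0.22. Fos had 66.6 in CAR-KO, where it was not well above background, against 71.9 in WT liver, and 100 against 78.8 on array 2. Fos thus changed sign between the arrays, as Fosb did (log2 ratios of 0.06 and -0.10). Egr1 and Ier2 were slightly brighter in CAR-KO liver on both arrays, with log2 ratios of 0.20 and 0.05 and of 0.03 and 0.22, and Atf3 slightly dimmer (-0.03 and -0.13). In all, 8 of the 10 genes had 1 sign on both arrays, where 43.1% of all probes did.

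PB was tested without CAR in the CAR-KO livers, those given DEN with PB being set over those given DEN alone. None of the 10 genes passed and 0 had an unadjusted p under 0.05, where limma called 0% of all probes and 565 probes passed unadjusted. Fitted log2 ratios ran from -0.22 for Jun and Myc to 0.27 for Ier2, with a median of 0.0225 against -0.0075 over all probes. The 2 arrays gave the same sign for 3 of the 10 genes (Jun, Ier3 and Myc) and for 36.9% of all probes.

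Jun had signals of 84.9 with PB against 86.5 without it on array 1 and of 69.1 against 91.8 on array 2, a fitted log2 ratio of -0.22 ± 0.23 (SE, 2 arrays). Myc had 103 with PB against 110 without it and 78.9 against 99.3, a fitted ratio of -0.22 ± 0.15. Both were dimmer with PB on each array, by less than 2 SE. Fos had 64.9 with PB against 74.5 without it and then 86.1 against 64.4, the last not well above background, and so changed sign. Egr1 (0.06 and -0.34), Fosb (0.15 and -0.19) and Atf3 (-0.03 and 0.17) also changed sign in their log2 ratios.

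The widest gaps between the arrays of the PB pair were those of Ier2 and Junb. Ier2 had signals of 321 with PB against 387 without it on array 1, and of 268 against 152 on array 2. Junb had 517 against 619 and then 382 against 225. For both genes array 1 was lower with PB and array 2 higher. The hepatocyte markers did not move together on the same arrays. Apoa1 (log2 ratios of -0.40 and 2.79), Ass1 (-0.21 and 2.36), Apoa2 (-0.15 and 0.6) and Tdo2 (-0.32 and 0.37) rose from negative to positive. Fabp1 (0.06 and -1.47), Ttr (0.1 and -0.25) and Hnf4a (0.11 and -0.18) went the other way. The part of hepatocyte content in the values of Ier2 and Junb was not tested.

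WT tumour was compared with WT liver of the same treatment only through CAR-KO liver, and the comparison shares those channels with the direct ones. None of the 10 genes passed, where limma called 0% of all probes and 1737 probes passed unadjusted, and Jun and Myc were the 2 with an unadjusted p under 0.05. Jun had a log2 ratio of 1.05 ± 0.33 (SE; 95% interval 0.29 to 1.82; adjusted p = 0.54) and Myc of 0.63 ± 0.21 (0.14 to 1.13; adjusted p = 0.568). Jund, at 0.56 in tumour over CAR-KO liver, was at 0.14 ± 0.27 over WT liver. With array 1 of the tumour pair left out the Jun ratio was 1.64, and with array 2 left out the Fos ratio was -1.29. Each of these fits held 1 tumour array.

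On a scale that also aligned the arrays with each other, the log2 level of Jun was 8.05 in tumour, 6.47 in CAR-KO liver with PB, 6.61 in CAR-KO liver without PB and 6.86 in WT liver. Tumour channels stood at 7.90 and 8.20 and liver channels ran from 6.26 to 6.95, while the ranges of the 2 CAR-KO groups overlapped. How many of all probes keep tumour and liver channels apart was not counted. Myc stood at 7.22 in tumour, 6.43 and 6.86 in the CAR-KO livers with and without PB and 6.64 in WT liver. Here the tumour channels (6.82 and 7.62) overlapped those of CAR-KO liver without PB (6.81 and 6.91) and of WT liver (6.44 and 6.85), and the lower of them stood level, as rounded, with the highest of the 6 channels of CAR-KO liver with PB (5.79 to 6.82).

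Jund was lowest in CAR-KO liver, at 10.76 with PB and 10.59 without, against 11.33 in tumour and 11.18 in WT liver. The 6 CAR-KO channels with PB ran from 10.67 to 10.85, the WT liver channels stood at 11.15 and 11.20, and the tumour channels at 11.06 and 11.59. These levels are given as a description, with no test, and Jund passed in no comparison. How many of all probes have channels as far apart was not counted. Among the 10 genes, Fos and Fosb varied most over the 6 channels of CAR-KO liver with PB. Over these channels their log2 levels had an SD of 0.63 and 0.64, above the 95th percentile of all probes tested (0.56, median 0.26), and Fos spanned 6.01 to 7.70. Within each array the 2 Fosb channels lay close together, with log2 ratios no larger than 0.19 in size. The Fosb levels thus differed between arrays, and its tumour channels did so too (8.36 and 6.88).

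**Figure D4:**
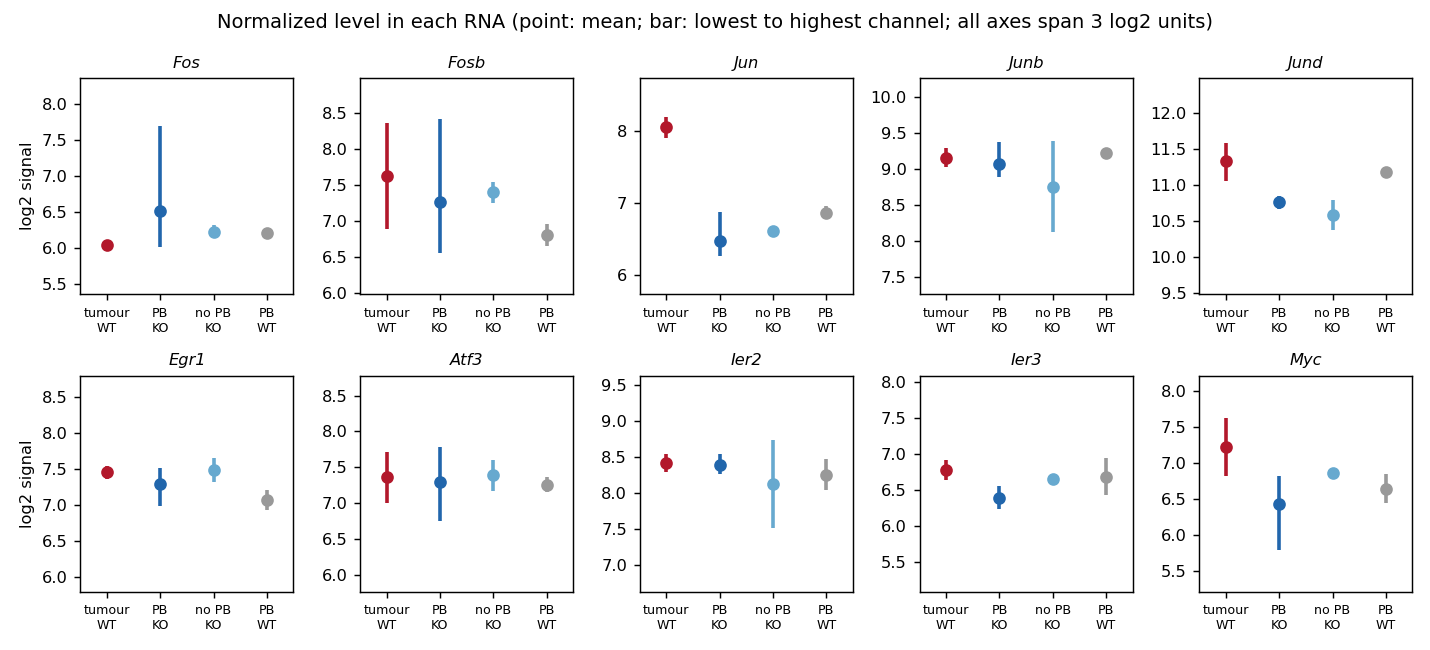
Normalized log2 level (y axis, every axis 3 units long) of each gene in WT tumour, CAR-KO liver with PB, CAR-KO liver without PB and WT liver with PB, with the mean as a point and the lowest to highest channel as a bar (2, 6, 2 and 2 channels). The highest point for Jun is tumour at 8.05, and the bars of Fos and Fosb are longest in CAR-KO liver with PB. The Fosb bar is long in tumour too (6.88 to 8.36).

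The genes whose ratios lay closest to those of Jun over the 6 arrays were Gbp4, Npdc1 and Chd1l, at root mean square differences of 0.21, 0.22 and 0.23 log2 units. The median over 7552 candidate genes was 0.96. For Myc they were Fam120b, Cxcl9 and Mrpl54, each at 0.12, against a median of 0.61. In WT tumour over CAR-KO liver these genes had log2 ratios of 1.22, 1.62 and 1.57 (near Jun) and of 0.89, 1.02 and 0.93 (near Myc). Because the genes were picked by ratios that include this comparison, their closeness in it follows from the selection.

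Other immediate early genes were read in the same comparison. Of 32 measured of 39 listed, 1 was higher and 1 lower in WT tumour over CAR-KO liver, with a median log2 ratio of 0.08. Klf6, a zinc finger gene induced by growth signals, had 1.11 ± 0.16 (SE; 1.13 and 1.09 on the 2 arrays; limma adjusted p = 0.0124). Errfi1, which encodes an inhibitor of the EGF receptor, had -1.05 ± 0.15 (-1.23 and -0.86; adjusted p = 0.013). Each kept its sign in 14 other settings and passed in 8, missing the threshold with 1 array of the PB pair left out (adjusted p = 0.0559 and 0.056), and with median centring Errfi1 was at -0.38 (adjusted p = 0.119). Egr3, Nr4a1, Dusp1 and Zfp36, all part of the common early response, had log2 ratios of -0.30, -0.22, 0.21 and 0.05, and none passed.

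Several early genes differed widely between the 2 tumour arrays, as Fos did. Ier5 had log2 ratios of -1.40 and 1.47, Gadd45b -0.73 and 1.98, and Ccn1 -0.95 and 0.72. Array 1 was the lower of the 2 for each.

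Among 19 measured kinases and factors upstream of the early genes, the EGF receptor gene Egfr was lower in tumour over CAR-KO liver (-0.90 ± 0.16, with arrays at -0.76 and -1.04; limma adjusted p = 0.0296), and 0 were higher. Egfr passed in 6 of 14 other settings. Among others, it missed the threshold with median centring (-0.38, adjusted p = 0.129) and on the processed signals (-0.96, adjusted p = 0.262). It also missed with any 1 array of the genotype or PB pair left out. Map2k1, which encodes the kinase above ERK, had 0.56 ± 0.15 and did not pass (adjusted p = 0.101). Srf, whose product binds CArG boxes, had 0.12 ± 0.18. Of 8 measured AP-1 partner genes 0 passed, and Mafg had the largest ratio at 0.65 ± 0.16 (adjusted p = 0.0799). The AP-1 partners share members with the other lists.

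Of 14 measured genes of the Myc network 0 passed in tumour over CAR-KO liver, with a median log2 ratio of -0.06. Max, the obligate partner of Myc, had 0.29 ± 0.16, and Mycn and Mycl had -0.07 and -0.25. Of 13 measured Myc target genes 0 passed, 9 ratios were positive and the median was 0.35, against -0.0057 over all probes. Those named here were chosen after their values were seen. Among genes for making ribosomes, Rrs1 (0.62 ± 0.15), Fbl (0.40 ± 0.15) and Ncl (0.63 ± 0.23) were positive on both arrays, while Polr1b (-0.69 and 0.35 on the 2 arrays) and Ddx21 (fitted at -0.02) were not. The transferrin receptor gene Tfrc had -1.97 and 0.04. In the other 3 comparisons 0 genes of these 5 lists passed.

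**Figure D5:**
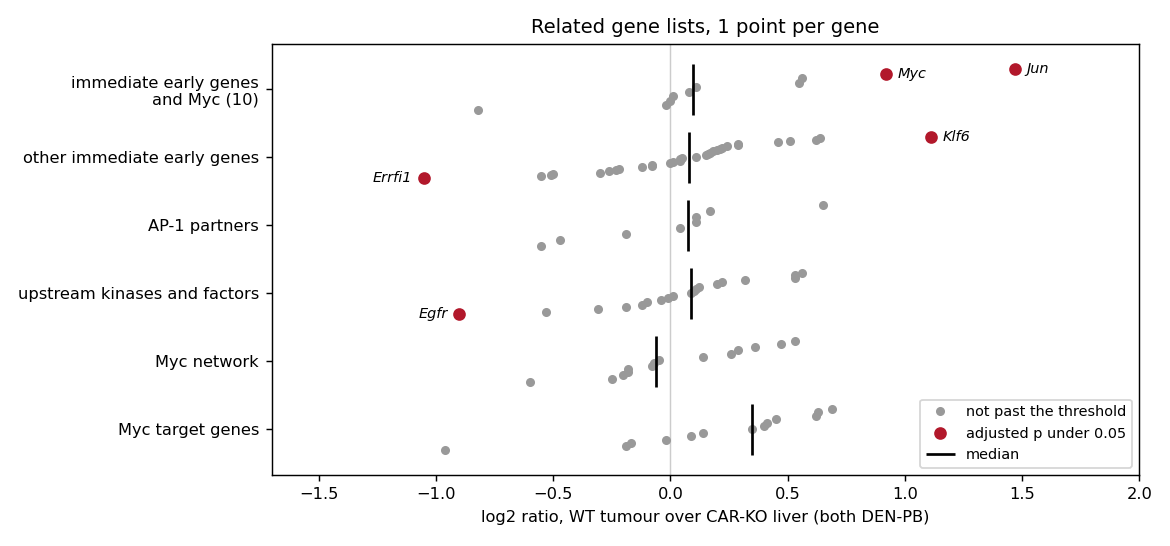
Log2 ratio of WT tumour over CAR-KO liver (x axis) for each measured gene of 6 lists (rows), with red points at an adjusted p under 0.05 and a bar at the list's median. Jun, Myc and Klf6 were higher and Errfi1 and Egfr lower, and the medians lie between -0.06 and 0.35.

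Markers of other liver cells were read beside these results. In WT tumour over CAR-KO liver, 1 of 5 cholangiocyte markers was higher, Krt19 (1.13 ± 0.16; limma adjusted p = 0.0135), while Krt7, Epcam, Cftr and Spp1 had log2 ratios between -0.23 and 0.05. The Krt19 call held in 7 of 13 other settings. Among others, it was lost without background subtraction (0.60, adjusted p = 0.0588) and on the processed signals (1.88, adjusted p = 0.157). With 1 array of the PB pair left out it was lost as well. Among 7 macrophage markers 0 passed, with a range of -0.31 to 0.72 and a median of 0.33, and Cd68 at 0.72. Stellate (5), endothelial (6), lymphocyte (8) and neutrophil (5) markers had 0 called and medians of -0.02, -0.08, 0.03 and -0.13. Among 7 hepatocyte markers Ass1 was lower (-1.47 ± 0.30, adjusted p = 0.0466), a call that held in 8 of 14 other settings and was lost, for one, with the second tumour array left out (-0.96, adjusted p = 0.0611), and the median was -0.32, with 0 of the 7 ratios positive. The part of these cells in the Jun and Myc values was not tested.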

How the data were processed

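Each deposited scanner file gives, for each spot, a mean signal and a median local background, the authors' readings in intensity units without normalization, with Cy3 as green and Cy5 as red per the labels. Deposited processed intensity values had been background-subtracted and dye-normalized with Agilent Feature Extraction (7.1.1 on 5 arrays and 7.5.1 on array 2 of the tumour pair, per the file headers; 7.5 per the submitters' processing notes). The deposited log10 ratio, red over green, equals the deposited value table. Other deposited columns used were spot flags.

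Signals were corrected with normexp (offset 50), normalized by loess within arrays and averaged per probe, leaving out flagged spots. Log2 ratios of all 6 arrays were fitted together with limma 3.58.1 (lmFit, eBayes; R 4.3.3), with a dye effect per probe, 2 residual and 5.478 prior degrees of freedom. Of 20868 probes, 20744 had a channel well above background on at least 2 arrays and were tested, with Benjamini-Hochberg adjustment over all. Levels per RNA used Aquantile scaling. The number of arrays limits the precision.

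The members and lists were chosen with earlier results of these data known. Named beyond the members were called genes of each list, up to 6 per list and comparison, the 3 nearest genes by ratio for each called member, and list genes given for contrast after their values were seen. No genome build was named for the probes, so no probe positions are given. Array 2 of the tumour pair was left out as an alternative, since a batch of 1 array cannot be fitted.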

Additional observations from a re-analysis of the deposited data

How the results depend on the processing

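In WT tumour over CAR-KO liver 2 of the 10 genes were called. The count was 1 without background subtraction, 0 on the software's processed signals, 0 on the arrays of the pair alone, 0 with array weights and 4 with median centring, beside 506, 0, 62, 227 and 4156 of all probes and 698 in the report. Leaving out 1 array gave 0 to 4 genes and 285 to 4708 probes, the most without array 2 of the tumour pair. In WT tumour over WT liver the count moved in some fits without 1 array. A pair then held 1 array, so no call is read from those fits. With all 6 arrays the count there was 0 in the report and 0 with median centring, beside 0 and 47 of all probes. In CAR-KO over WT liver and in PB over no PB it was 0 under every alternative run, with 0 to 94 and 0 to 6 probes. A pair left with 1 array was assumed to vary like the others.

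Median centring turned the sign of Fosb (0.03, 0.01, 0.15 and 0.19 in CAR-KO over WT liver, PB over no PB, tumour over CAR-KO liver and tumour over WT liver), Fos (-0.07, PB over no PB) and Junb (0.31, tumour over WT liver). The processed signals turned that of Fosb (0.01, tumour over CAR-KO liver). With 1 array left out, these uncalled log2 ratios spanned 0. In CAR-KO over WT liver they ran from -0.23 to 0.47 (Fos), -0.04 to 0.30 (Ier2), -0.03 to 0.27 (Egr1) and -0.26 to 0.10 (Atf3). In PB over no PB they ran from -0.12 to 0.34 (Fos), -0.16 to 0.12 (Fosb), -0.58 to 0.15 (Jun), -0.27 to 0.77 (Junb), -0.20 to 0.54 (Jund), -0.22 to 0.77 (Ier2) and -0.32 to 0.01 (Ier3). In tumour over CAR-KO liver they ran from -0.17 to 0.12 (Fosb), -0.37 to 0.40 (Junb), -0.01 to 0.23 (Egr1) and -0.06 to 0.22 (Atf3). In tumour over WT liver they ran from -0.19 to 0.10 (Fosb), -0.56 to 0.20 (Junb), -0.13 to 0.42 (Jund) and -0.20 to 0.45 (Ier2). The causes were not tested.

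No paired analysis was possible because the labels give the arrays no replicate numbers (array 1 and array 2 are names in accession order and link no array of one pair to one of another). A block by scan date was not run, since the headers hold an extraction time and the array that differs in software stands alone. Signal near background limits the Fos ratios.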
